A study of Mus musculus with 4 samples.

Results

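Solute carriers are membrane proteins that move small molecules, and 151 of their genes were detected in cells sorted from the mouse aorta for the endothelial marker CD31. The deposited table lists 18767 genes, of which 321 have a symbol of the Slc or Slco series. Members were selected on their measured counts: a carrier entered when it had a count in 20 or more of the 824 cells with more than 1200 genes. How high their levels are is therefore given as a description, and tests were run only between the labels. With a minimum of 10 cells the number was 183, and with 40 cells it was 122.

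The cells came from 4 libraries, 2 with each genotype label. Jag1 ECKO mice were Jag1 fl/fl Cdh5 CreERT2/+, in which the endothelial *Cdh5* promoter drives a tamoxifen-activated Cre recombinase that removes *Jag1*, and Jag1 ECWT controls were Jag1 fl/fl Cdh5+/+ without Cre. Per the study's methods, mice were C57BL/6J males of 1.5 to 3 months and received tamoxifen at 2 mg daily on 5 consecutive days, controls included. CD31+ CD45- TO-PRO-3- cells were sorted into multiwell plates, and the sources do not say how many animals stand behind a library, so p-values measure only the spread between these libraries. Libraries are written ECKO-1, ECKO-2, ECWT-1 and ECWT-2, for replicates 1 and 2 under each label.

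*Jag1* counts went against the labels, being higher in the libraries labelled Jag1 ECKO. The level in endothelial cells (EC) was 164 CPM (counts scaled to a library total of 1000000) in ECKO-1, 72.6 in ECKO-2, 30.8 in ECWT-1 and 26.4 in ECWT-2. The log2 fold change between the labels was 2.03 (edgeR, unadjusted p = 3.25e-04, adjusted p = 0.921). SORT-seq counts the polyadenylated end of a transcript. Whether that end lies in the deleted part is not given in the sources used here. The counts are not used as a check of the deletion, and whether the labels of the libraries were exchanged was not tested. An exchange would turn every direction given below. The study examined the deletion separately, by qRT-PCR and staining of endothelium, and directions below are given by library label. After clustering, 794 EC remained (194, 224, 137 and 239 cells in ECKO-1, ECKO-2, ECWT-1 and ECWT-2), with 843202 to 1638595 counts per library, and 30 cells were set apart as fibroblast and vascular smooth muscle (VSMC)-like. The 10 EC markers summed to between 9681 and 11720 CPM. ECKO-1 stood apart. Its summed level was 3817 CPM for dissociation response genes, against 1922 to 2354 in the others, and 944 CPM for capillary and lipid-handling markers, against 215 to 272. Most of the 944 CPM came from *Fabp4* (668 CPM) and *Cd36* (202 CPM). *Gpihbp1* of the same list was not raised, with 12.6 CPM in ECKO-1 against 12.5 to 20.2 in the others. Erythroid markers summed to 80.1 CPM in ECKO-1 and at most 0.70 in the others, with *Alas2* at 0, and a cluster of 29 cells led by dissociation genes held cells of ECKO-1 alone. Leukocyte markers summed to at most 10.99 CPM in any library.

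Carriers differ in where they sit and what they move. Plasma membrane carriers exchange amino acids, sugars, nucleosides, ions and signalling lipids between blood and the cell, the SLC25 family serves the inner mitochondrial membrane, and the SLC35 and SLC37 families load the endoplasmic reticulum and Golgi apparatus. Endothelium is the first barrier that blood-borne solutes meet, and brain endothelium is known for a dedicated set of carriers. SORT-seq counts each molecule once, at its 3′ end, with a unique molecular identifier, so levels of different genes are compared here in CPM without a correction for transcript length.

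All members together took 0.657% of the counts of EC in ECKO-1, 0.600% in ECKO-2, 0.676% in ECWT-1 and 0.642% in ECWT-2. These shares overlapped between the labels. On the log2 scale the ratio of the summed level in the libraries labelled Jag1 ECKO to that in the others was -0.07 (exact permutation test, two-sided, p = 0.667), in a design of 2 libraries against 2 that cannot give a p below 0.333. With each library left out in turn this ratio lay between -0.1346 and -0.0047. The level was held by few genes. The 10 highest carriers made up 41.6% of it, 16 were enough to reach 50%, and the 25 highest made up 60.7%. By mean level over the 4 libraries, 11 carriers lay above 100 CPM, 102 between 10 and 100 CPM and 38 at 10 CPM or below. The median carrier had 21.0 CPM and a count in 10.1% of EC, and 9 carriers had a count in more than 50% of EC. A count was present in every library for 150 of the 151. The exception was *Slc34a2*, a sodium and phosphate cotransporter, with 0, 21, 5 and 9 counts in ECKO-1, ECKO-2, ECWT-1 and ECWT-2.

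The highest carrier was *Slc43a3*, on chromosome 2 of GRCm38 (chr2:84936579-84958509, plus strand). Its family is grouped with amino acid carriers, and the protein is known to move purine nucleobases. It had 432 CPM in ECKO-1, 516 in ECKO-2, 594 in ECWT-1 and 389 in ECWT-2 (mean 483 ± 91.1, SD, n = 4), and a count in 73.2% of EC. *Slc44a2*, a choline transporter-like protein of the plasma and mitochondrial membranes, was next in mean level with 361, 367, 382 and 399 CPM in the same order of libraries. It had an SD of 16.9 CPM and was found in 78.7% of EC, more than any other carrier. *Slc3a2*, the heavy chain (CD98) that escorts several amino acid exchangers of the SLC7 family to the cell surface, had 393, 313, 344 and 398 CPM. The ranges of these 3 genes overlapped, so their order rests on the mean alone.

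*Slco2a1*, the prostaglandin transporter (chr9:102988712-103096002, plus strand), came next with 282 CPM in ECKO-1, 237 in ECKO-2, 318 in ECWT-1 and 339 in ECWT-2. Its highest library lay below the lowest library of *Slc44a2*. It had a count in 67.5% of EC, while the fibroblast and VSMC-like cells had 61.4 CPM. *Slc25a4*, an ADP/ATP exchanger of the inner mitochondrial membrane, had 194 to 238 CPM, and *Slc25a3*, the mitochondrial phosphate carrier, had 199 to 253 CPM. *Slc38a2*, a sodium-coupled importer of small neutral amino acids, had 165 to 247 CPM. *Slc29a1*, the equilibrative nucleoside transporter that takes up adenosine, had 195 to 220 CPM. *Slc50a1*, the mammalian member of the SWEET sugar transporters, had 159 to 203 CPM. These 5 genes overlapped in range, and only the next gene fell clear of them, *Slc7a1*, the cationic amino acid transporter that imports arginine, with 153 CPM in ECKO-1 and 109 to 112 CPM in the others. *Slc12a7*, a potassium and chloride cotransporter, followed with 83.0 to 145 CPM.

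**Figure D1:**
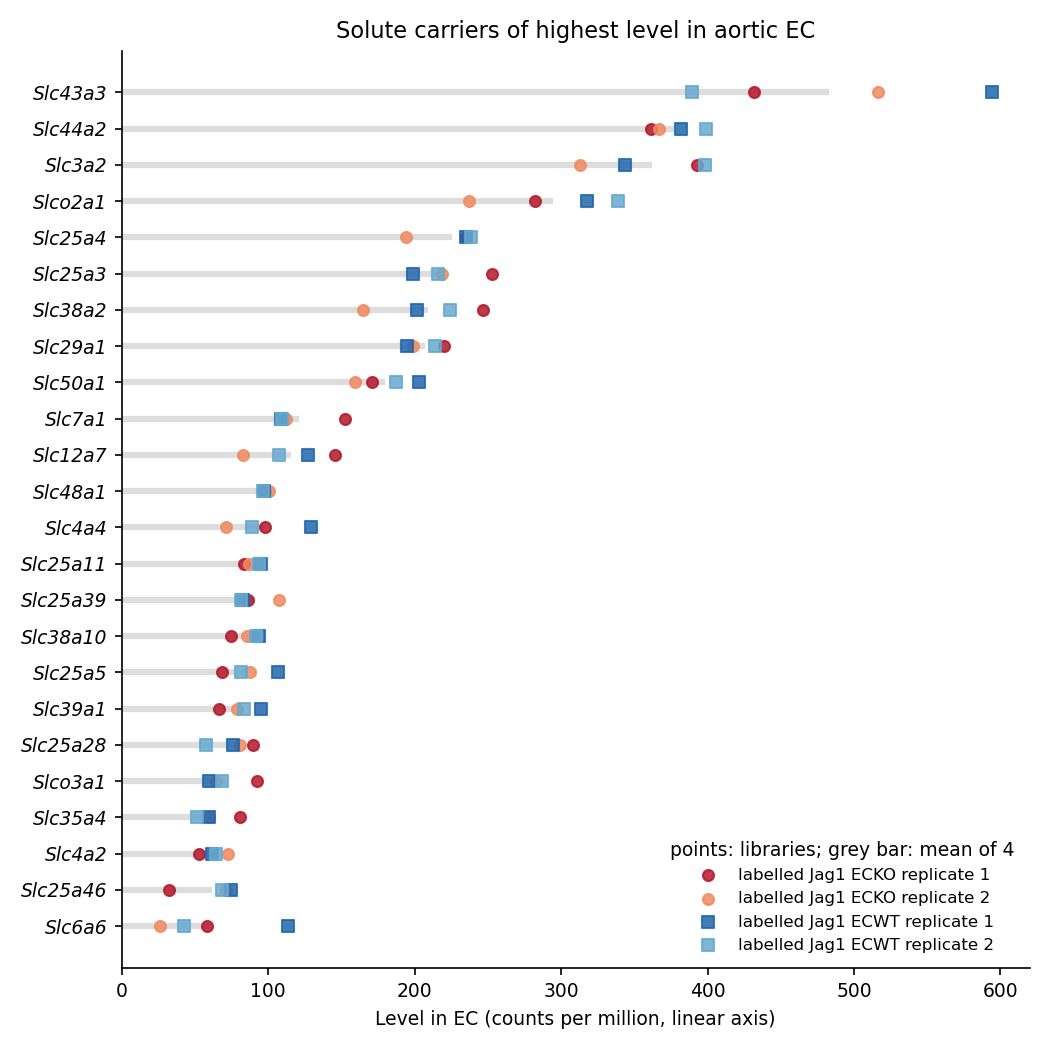
Level of 24 of the 25 highest solute carriers in EC, in CPM on a linear axis, with 1 point for each of the 4 libraries and a grey bar for their mean. *Slc43a3*, *Slc44a2* and *Slc3a2* stand above the carriers below *Slco2a1*, whose points overlap those of the next genes, and *Slc6a6* in the last row has the widest relative spread, from 26.2 to 114 CPM.

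Below 100 CPM the leading carriers were mostly of ions and mitochondria. *Slc48a1*, a heme transporter of endosomes and lysosomes, had 96.6 to 101 CPM in all libraries, an SD of 1.80 CPM. *Slc4a4*, an electrogenic sodium bicarbonate cotransporter, had 98.0 CPM in ECKO-1, 71.4 in ECKO-2, 129 in ECWT-1 and 89.0 in ECWT-2. *Slc25a11*, which exchanges oxoglutarate for malate, *Slc25a39*, which carries glutathione into mitochondria, and *Slc25a5*, a second ADP/ATP exchanger, had means of 89.8, 89.5 and 86.1 CPM. *Slc25a28*, the mitochondrial iron importer mitoferrin, had 57.7 to 89.5 CPM. *Slc25a46*, an outer membrane relative of this family that acts in mitochondrial shape, had 32.7 CPM in ECKO-1 and 68.8 to 74.7 CPM in the others.

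Carriers were grouped into 12 substrate classes by family number, so a member that departs from its family, such as *Slc43a3*, stays with it. Families of amino acids, taurine and creatine held 24.7% of the summed level with 22 members, and mitochondrial carriers held 21.5% with 33 members. The amino acid class had 1570, 1476, 1736 and 1588 CPM and the mitochondrial class 1407, 1364, 1416 and 1344 CPM in ECKO-1, ECKO-2, ECWT-1 and ECWT-2. The lowest amino acid value lay above the highest mitochondrial one, but this order turned without *Slc43a3*, which left the amino acid class with 1138, 959, 1142 and 1199 CPM. Carriers of protons, bicarbonate, chloride and calcium held 11.4%, with 643 to 812 CPM from 20 members, and metal carriers held 10.5%, with 631 to 741 CPM from 24 members. These ranges overlapped.

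In the metal class no gene dominated. *Slc39a1*, a zinc importer of the plasma membrane, led with 66.4 to 94.9 CPM, and *Slc39a7*, which releases zinc from the endoplasmic reticulum, had a mean of 60.0 CPM. *Slc30a7* and *Slc30a1*, which move zinc into the Golgi apparatus and out of the cell, had means of 53.3 and 48.03 CPM. The class of vitamins, choline and heme was the reverse, with a range of 576 to 581 CPM of which *Slc44a2* alone had a mean of 377. Organic ions and peptides had 466 to 579 CPM, led by *Slco2a1*. *Slc22a5*, the carnitine importer of this class, had 17.7 to 46.2 CPM.

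Sugar carriers had 275 to 314 CPM, most of it *Slc50a1*. *Slc2a1*, the glucose transporter GLUT1, had 20.02 CPM in ECKO-1, 26.9 in ECKO-2, 18.98 in ECWT-1 and 13.9 in ECWT-2, and a count in 10.2% of EC. Endoplasmic reticulum and Golgi carriers had 187 to 270 CPM, led by *Slc35a4* of the nucleotide sugar transporter family with a mean of 62.9 CPM. Nucleoside carriers had 212 to 244 CPM from 2 members, *Slc29a1* and the lysosomal *Slc29a3*. Monocarboxylate carriers had 73.8 to 112 CPM from 6 members. The classes of phosphate, sulfate and dicarboxylates, led by the lysosomal sialic acid exporter *Slc17a5* (mean 26.2 CPM), and of fatty acids, led by *Slc27a4* (mean 12.4 CPM), closed the order with means of 65.4 and 18.2 CPM. Both libraries labelled Jag1 ECKO lay below both others in 3 of the 12 classes, those of amino acids, sugars and monocarboxylates. Of all genes tested, 18.8% lay the same way. For such a separation an exact permutation test of 2 libraries against 2 gives p = 0.333 at the least.

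**Figure D2:**
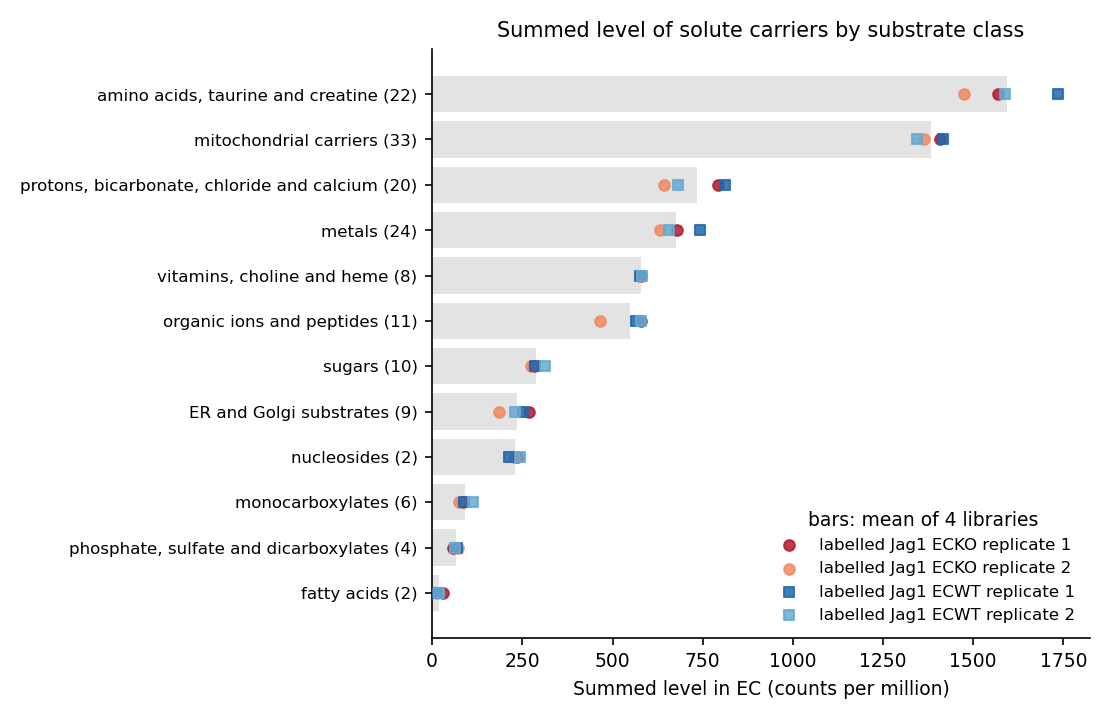
Summed level of members in EC by substrate class, in CPM, with 1 point per library, bars for the mean of 4 libraries and the number of members in parentheses. Amino acid carriers, with *Slc43a3* counted among them, and mitochondrial carriers lead, and within most classes the points of both labels overlap.

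Carriers known from brain endothelium ranged from among the highest to nearly undetected. The list held 16 carriers found in the table, of which 9 had a mean below 10 CPM in EC and 7 had enough counts for a test between the labels. *Slc3a2*, *Slc7a1*, *Slc6a6* and *Slc30a1*, with means of 362, 121, 60.1 and 48.03 CPM, were its highest members. *Slc7a5*, the light chain that pairs with *Slc3a2* for large neutral amino acids, had 0 to 2.44 CPM and a count in 0.630% of EC, while *Slc3a2* was among the 3 highest carriers. *Slc16a1*, a lactate and monocarboxylate transporter, had a count in 0.126% of EC, and *Slco1c1*, a thyroxine transporter, had 1.05 to 3.48 CPM. *Mfsd2a*, a lipid transporter of brain endothelium named outside the Slc series, was at 0 in 3 libraries and had 7 counts in ECWT-1, all in 1 cell. A count of 0 in a library allows a level of up to 1.83 to 3.56 CPM, from a floor of 3 counts, and this covers counting error only.

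Across the 13 EC clusters the leading carriers were found throughout. The clusters were built from the same cells and genes, so levels by cluster are a description. *Slc44a2* ranged from 246 to 442 CPM over the clusters, *Slc25a3* from 170 to 272 CPM and *Slc43a3* from 248 to 722 CPM. The highest *Slc43a3* level was in cluster 1, led by *Nkx2-3*, *Pla2g5* and *Pcolce2*, which had 27.8% of its counts in EC. One cell had 87 of its 2317 counts. *Slco2a1* ranged from 158 CPM in cluster 2, led by *Vcan* and *Nog*, to 437 CPM in the cluster led by dissociation genes. *Slc29a1*, *Slc7a1* and *Slc4a4* were lowest in cluster 13, with 57.8, 28.9 and 14.5 CPM, which are 4, 2 and 1 counts, a cluster of 17 cells led by *Gpihbp1*, *Igfbp3* and *Cd36*, in which 4 of the 7 capillary and lipid-handling markers were raised.

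**Figure D3:**
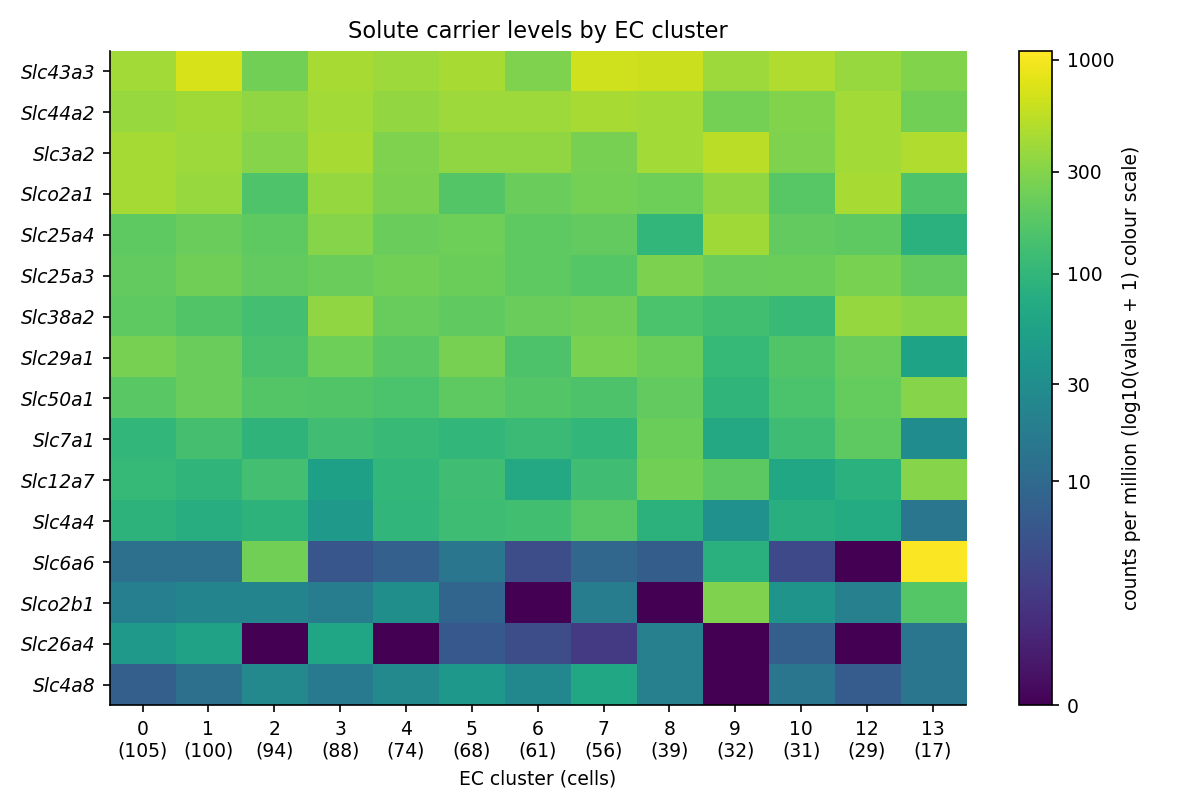
Levels of 16 solute carriers, in CPM on a log10(value + 1) colour scale, in each of the 13 EC clusters, with the number of cells in parentheses. The leading carriers fill every column, whereas *Slc6a6* stands out in clusters 13 and 2, *Slco2b1* in clusters 9 and 13, and *Slc26a4* in clusters 0, 1 and 3.

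*Slc6a6*, the taurine transporter (chr6:91684053-91759066, plus strand), had its counts in few cells. It had 255 counts over EC, in 64 cells, and 7 cells held 50% of them. *Slc35a4*, with 299 counts, was found in 209 cells. *Slc6a6* thus had 3.98 counts per cell with a count, against 1.43 for *Slc35a4*. In cluster 13 it reached 1041 CPM, with a count in 10 of 17 cells, against 38.1 CPM over the other EC, a ratio of 27.3. Each library contributed: ECKO-1 had 19 counts in 4 of 4 cells, ECKO-2 had 21 in 3 of 4, ECWT-1 had 18 in 2 of 8 and ECWT-2 had 14 in its 1 cell. With each library left out in turn the ratio lay between 19.3 and 50.2, and at clustering resolution 0.8 it was 9.67.

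A second site of *Slc6a6* was cluster 2, with 246 CPM over 94 cells. Only 13 of these cells had a count. In ECKO-1 all 24 counts came from 1 cell, in ECWT-1 3 cells had 66 counts, in ECWT-2 3 cells had 35, and in ECKO-2 6 cells had 7. Clusters 2 and 13 together held 204 of the 255 counts. Outside them the 51 remaining counts lay in 41 of 683 cells, of which cluster 9 held 15 counts in 9 of 32 cells, and 11 of these 15 counts came from ECKO-1. By library the remainder was 12 in ECKO-1, 15 in ECKO-2, 12 in ECWT-1 and 12 in ECWT-2. As a rate per library in CPM of all EC counts this is 12.6, 9.15, 14.2 and 8.34. The fibroblast and VSMC-like cells had 152 CPM and a count in 53.3% of cells.

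*Slco2b1*, an organic anion transporter (chr7:99657804-99711340, minus strand), was raised in cluster 9, led by *Lrg1*, *Fabp4*, *Pde2a* and *Nr2f2*. It had 282 CPM there, with a count in 19 of 32 cells, against 22.8 CPM in the other EC, a ratio of 12.4. The counts were 22 in 10 of 18 cells of ECKO-1, 21 in 6 of 9 of ECKO-2, 6 in 2 of 3 of ECWT-1 and 1 in 1 of 2 of ECWT-2. With each library left out the ratio lay between 11.6 and 14.4. Cluster 13 came next with 173 CPM, and both clusters together held 62 of 157 counts. Cluster 9 carried 3 of the 7 capillary and lipid-handling markers, 2 dissociation markers, 1 lymphatic marker and 1 VSMC marker.

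*Slc26a4*, the anion exchanger pendrin (chr12:31519827-31559969, minus strand), followed another distribution. It had 111 counts in 42 EC, and 9 cells held 50% of them. Clusters 0, 1 and 3 held 101 of the 111 counts, in 32 of 293 cells, and the other 501 EC had 10 counts in 10 cells. Clusters 2, 4, 9 and 12 had none. It had 43.7 CPM in cluster 0, 56.2 in cluster 1 and 59.9 in cluster 3. No count was seen in the 30 fibroblast and VSMC-like cells. *Slc4a8*, a sodium-driven chloride and bicarbonate exchanger, had 64.5 CPM in cluster 7, led by *Ifit1*, *Pthlh* and *Hbegf*, against 18.7 CPM in the other EC.

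**Figure D4:**
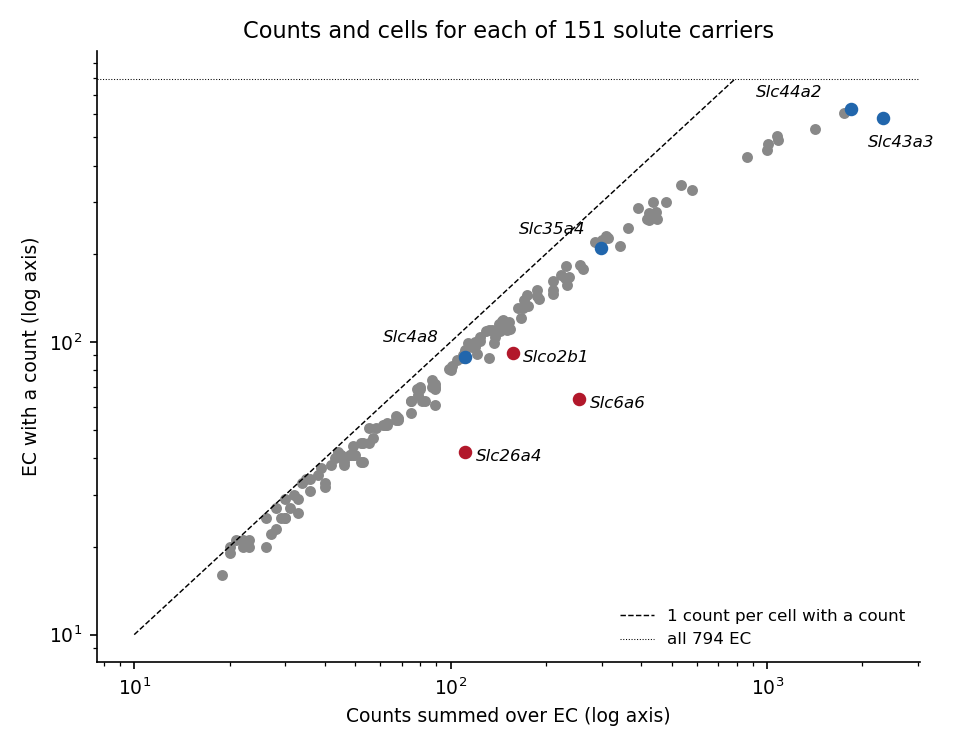
Number of EC with a count against counts summed over EC, both on log axes, with 1 point for each of the 151 carriers, a dashed line at 1 count per cell with a count and a dotted line at all 794 EC. *Slc6a6*, *Slc26a4* and *Slco2b1*, in red, lie below the band that the other carriers form.

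Other ratios rested on few counts. Of 137 carriers with 30 or more counts in EC, 35 had at least 3 times the level of the other EC in some cluster, but 31 of these had fewer than 20 counts inside that cluster, and 15 led in the 17 cells of cluster 13. By size the list ran on from *Slco2b1* with *Slc25a32*, *Slc22a21*, *Slc43a2*, *Slc25a35*, *Slc45a3*, *Slc31a1*, *Slc30a1* and *Slc39a8*, on 3 to 14 counts in the leading cluster. Carriers detected in fewer than 20 cells gave similar patterns, and they were named after their values were seen. All 10 counts of *Slc26a10* in EC lay in cluster 13, in 5 cells, with 1, 7, 1 and 1 counts in ECKO-1, ECKO-2, ECWT-1 and ECWT-2. *Slco1a4*, an organic anion transporter of brain endothelium, had 17 of its 23 counts there, all in ECWT-1.

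Some carriers separated EC from the 30 fibroblast and VSMC-like cells. Because these cells were found by clustering, this too is a description. *Slc7a1* had 21.7 CPM in them against a mean of 121 in EC, *Slc4a4* 10.8 against 96.9, and *Slc12a7* 36.1 against 116. The reverse held for 8 members, with at least 3 times the EC level on 5 or more counts. *Slc7a2*, a second cationic amino acid transporter, had 108 CPM in the fibroblast and VSMC-like cells against 25.8 in EC. *Slc1a5*, the glutamine exchanger ASCT2, had 65.0 against 10.5, and *Slc4a7*, a sodium bicarbonate cotransporter, 90.3 against 27.2. *Slc6a8*, *Slc7a6*, *Slc11a1*, *Slc16a3* and *Slc16a7* were the other members. *Slc16a7* had a count in 16 EC and met the minimum of 20 cells only through the fibroblast and VSMC-like cells, which leaves 7 members without it. Median depth was 7604 counts per cell in the fibroblast and VSMC-like cells and 5246 in EC. In EC the summed VSMC markers were 663, 651, 439 and 391 CPM and fibroblast markers 1245, 1322, 1337 and 1961 CPM in ECKO-1, ECKO-2, ECWT-1 and ECWT-2, and their part in the carrier levels was not tested. The fibroblast sum includes *Mfap5*, which had 232 CPM in EC against 220 in the fibroblast and VSMC-like cells.

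Between the labels, 123 members had enough counts in EC for edgeR's quasi-likelihood test, fitted over 9485 genes with Benjamini-Hochberg adjustment, and 28 did not. None passed an adjusted p of 0.05, and the lowest adjusted p among them was 0.921. The share of all genes called was 0%. At an unadjusted p below 0.05, 3 members were higher in the libraries labelled Jag1 ECKO, where the share of all genes is 2.18%, and 6 were lower, where it is 2.20%, so that 7.32% of members and 4.39% of all genes passed in either direction. DESeq2 called no member, against 0.0105% of all genes, and gave 3 members at an unadjusted p below 0.05, which is 2.44% against 1.05% of all genes. The log2 fold change was above 0 for 55 members, 44.7% against 49.8% of all genes, and its median was -0.04 against -0.0013. With each library left out in turn the median of members lay between -0.0987 and 0.0346, so its sign was not fixed. Both libraries labelled Jag1 ECKO lay above both labelled Jag1 ECWT for 21 members, 17.1% against 15.6% of all genes, and below them for 30, 24.4% against 18.8%.

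The leading carriers had small differences between the labels. Of the 25 highest, 24 had a log2 fold change within 0.4 of 0. *Slco2a1* was lower in both libraries labelled Jag1 ECKO, at -0.33 on the log2 scale (SE 0.17, edgeR unadjusted p = 0.0939), and *Slc7a1* was higher in both, with 0.28 (SE 0.20, unadjusted p = 0.197). The remaining gene of the 25 was *Slc6a6*, with 57.9 CPM in ECKO-1, 26.2 in ECKO-2, 114 in ECWT-1 and 42.4 in ECWT-2 and a log2 fold change of -0.87 (SE 0.46, unadjusted p = 0.0896). Its groups overlapped. Without ECKO-1, whose counts included 24 from 1 cell, the value was -1.39 with an adjusted p of 2.78e-04, and without ECWT-1 it was -0.08 with an adjusted p of 0.999, so the value turned on single libraries.

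The members with an unadjusted p below 0.05 were of low to middle level, with 40 to 232 counts over EC. *Slc26a2*, a sulfate transporter, had the smallest p. It had 15 counts in ECKO-1, 53 in ECKO-2, 7 in ECWT-1 and 8 in ECWT-2, which is 15.8, 32.3, 8.30 and 5.56 CPM, and a log2 fold change of 1.92 (SE 0.52, unadjusted p = 0.00505, adjusted p = 0.921). The groups did not overlap. It passed an adjusted p of 0.05 without the filter on low counts (adjusted p = 0.0184) and without ECKO-1 (adjusted p = 1.47e-04), and without ECKO-2 it was 1.19 with an adjusted p of 0.544. *Slco2b1* was also higher, with 43.2, 39.7, 32.02 and 16.7 CPM and a log2 fold change of 0.85 (SE 0.34, unadjusted p = 0.0333). Its leading cluster held 18 of its 32 cells from ECKO-1, the library with the highest sum of capillary and lipid-handling markers. That cluster held 22, 21, 6 and 1 of the 41, 65, 27 and 24 *Slco2b1* counts in ECKO-1, ECKO-2, ECWT-1 and ECWT-2. The part of the cluster in the difference was not tested. With each library left out in turn the log2 fold change lay between 0.44, without ECWT-2, and 1.29, without ECWT-1. *Slc25a45*, a mitochondrial carrier, had 25.3, 29.9, 14.2 and 16.7 CPM and the same size of difference.

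On the lower side, *Slc35a3*, the Golgi transporter of UDP-N-acetylglucosamine, had 4.21 CPM in ECKO-1, 5.49 in ECKO-2, 20.2 in ECWT-1 and 15.99 in ECWT-2, with a log2 fold change of -1.79 (SE 0.49, unadjusted p = 0.00556). Its exons overlap those of *Gm43191* on the same strand, so reads of the pair may be mixed. *Slc6a18*, a neutral amino acid transporter known from kidney, had 29.5, 36.6, 58.1 and 66.0 CPM and a log2 fold change of -0.87 (SE 0.26, unadjusted p = 0.00858). *Slc38a9*, the lysosomal arginine sensor of the mTORC1 pathway, had 27.4, 28.1, 47.4 and 52.8 CPM and a log2 fold change of -0.83. Groups did not overlap for any of these 3. *Slc12a5*, a chloride extruder known from neurons, had 1, 8, 10 and 21 counts, *Slc12a9* had 9, 12, 20 and 22, and *Slc7a14*, of the cationic amino acid family, had 13, 29, 23 and 48. In CPM the libraries of the labels were separate for each, and no adjusted p was below 0.921.

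After these by p came *Slc35a1*, the CMP-sialic acid transporter, *Slc6a6* and *Slco2a1* on the lower side, and *Slc46a3*, *Slc12a2*, *Slc25a27*, *Slc25a28* and *Slc25a38* on the higher side, with unadjusted p from 0.0727 to 0.125. By class, none of the 12 had a member called. The amino acid class had 4 of 17 tested members above 0 and a median of -0.18, and mitochondrial carriers had 12 of 26 above 0 and a median of -0.06. Carriers of protons, bicarbonate, chloride and calcium had 10 of 19 above 0.

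**Figure D5:**
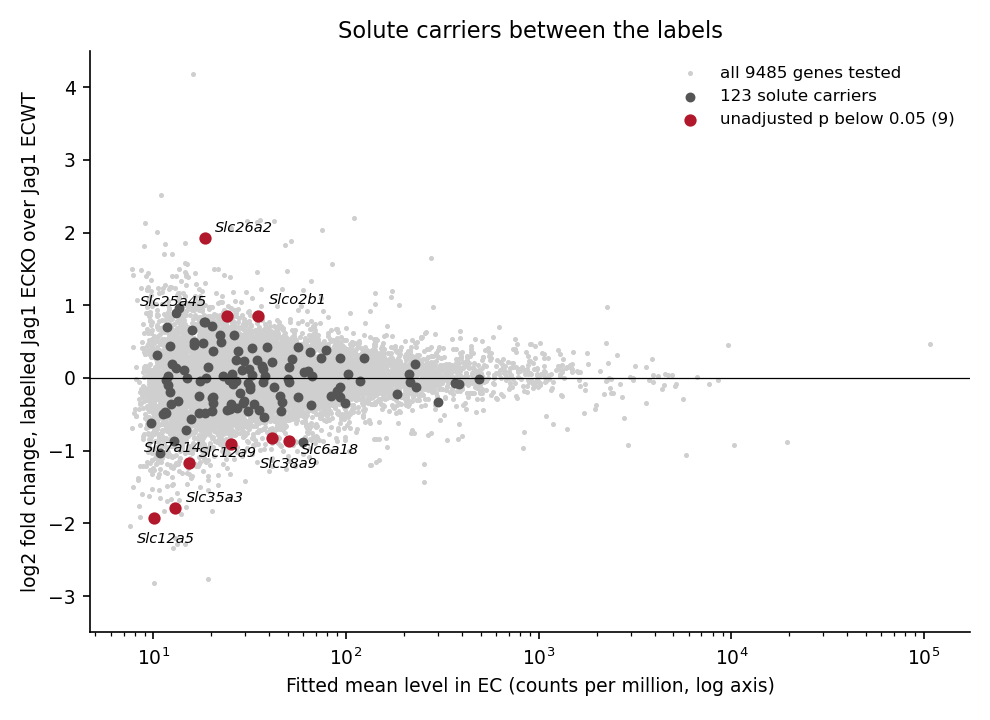
Log2 fold change between the labels (Jag1 ECKO over Jag1 ECWT) against the fitted mean level in EC in CPM on a log axis, for all 9485 genes tested (light grey), the 123 carriers tested (dark grey) and the 9 carriers with an unadjusted p below 0.05 (red). Carriers above 100 CPM lie close to 0, and the red points are at low to middle level.

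The pair labelled Jag1 ECKO differed more than pairs across the labels did, and the pair labelled Jag1 ECWT differed less. Over the 37 members with 200 or more counts, the median absolute log2 difference was 0.33 between ECKO-1 and ECKO-2, 0.18 between ECWT-1 and ECWT-2, and 0.23 to 0.27 for pairs across the labels. ECKO-1 was the highest library for 26.8% of members tested, against 32.8% of all genes, and ECWT-2 for 27.6%, against 18.6%. Some members of low level had a single count in ECKO-1. *Slc6a2*, the noradrenaline transporter, had 1, 28, 6 and 4 counts in ECKO-1, ECKO-2, ECWT-1 and ECWT-2, which is 1.05, 17.1, 7.12 and 2.78 CPM, and it was highest in ECKO-2. *Slc16a10*, an aromatic amino acid transporter, had 1, 15, 11 and 17 counts.

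Partners of carriers were described from a list of 17 ancillary genes, of which 15 were tested. None was called, and 3 had an unadjusted p below 0.05, all lower in the libraries labelled Jag1 ECKO, where the share of all genes is 2.20%. *Txnip*, which limits glucose uptake, had 668, 567, 1028 and 1057 CPM in ECKO-1, ECKO-2, ECWT-1 and ECWT-2 and a log2 fold change of -0.74 (SE 0.17, unadjusted p = 0.00172, adjusted p = 0.921). *Emb*, a chaperone of monocarboxylate carriers, had 33.7, 42.1, 47.4 and 96.6 CPM. *Bsg*, the other such chaperone, had 440 to 671 CPM and was above every carrier in mean level, with 508 CPM. *Slc9a3r2*, a scaffold that carries a carrier-like symbol, had a mean of 333 CPM.

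Of 24 carriers listed under other symbols, 20 were in the table and 14 were tested. None was called, and 2 of the same family had an unadjusted p below 0.05, both higher in the libraries labelled Jag1 ECKO, where the share of all genes is 2.18%. *Spns2*, the endothelial exporter of sphingosine-1-phosphate, had 51.6, 32.3, 23.7 and 15.99 CPM in ECKO-1, ECKO-2, ECWT-1 and ECWT-2, with a log2 fold change of 1.103 (SE 0.34, unadjusted p = 0.0109), and *Spns1*, of lysosomes, had 44.2, 30.5, 22.5 and 22.2 CPM. *Mtch1*, of the outer mitochondrial membrane, was the highest of the list with a mean of 206 CPM.

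At the threshold of the selection, 7 members had a count in 20 to 22 cells, *Slc1a4* in 22, *Slc37a1*, *Slc25a25*, *Slc16a7* and *Slc25a29* in 21, and *Slc2a9* and *Slc39a4* in 20, with means of 3.65 to 5.44 CPM. Just outside were *Slc38a8* in 19 cells, *Slc17a8* and *Slc27a1* in 18 and *Slc6a9* in 17, with means of 1.55 to 4.14 CPM. None of the 7 was tested between the labels. Of the 170 carriers outside, 4 had no count in EC. Among members, 8 share exons with another annotated gene on the same strand and 41 on the opposite strand, where reads may be mixed.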

How the data were processed

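Single cells were profiled with SORT-seq (plate-based, derived from CEL-Seq2) in 4 libraries of sorted aortic cells. Per the labels and methods, the authors aligned reads to GRCm38 with STAR, and the STAR version and the counting tool are not given in the sources used here. The deposited values are estimated counts per gene and cell, UMI numbers that the authors corrected for chance repeats of a UMI, and they were not scaled between cells. Solving the correction for 4096 UMI sequences gave whole numbers to within 5.00e-12. Estimated counts were rounded to whole numbers for the tests.

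Cells with more than 1200 genes were kept and clustered in Seurat 5.3.0 under R 4.3.3 (2000 variable genes, 12 principal components, resolution 2.3, the lowest that gave 14 clusters). A cluster was fibroblast and VSMC-like with 6 or more such markers at 3 times their level elsewhere after adding 20 CPM, and EC-like when at least 7 EC markers exceeded 0.333 of their overall mean. No doublet caller was run. Libraries shared 118 to 216 well barcodes in pairs, since plates use one barcode set, and 0 cells had identical values.

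Within each library the counts of all EC were added up, and CPM was computed from these sums. The library was the replicate in edgeR 4.0.16 (quasi-likelihood test after TMM scaling and filterByExpr, 2 libraries against 2, two-sided, Benjamini-Hochberg adjustment over all genes tested), with DESeq2 1.42.0 as an alternative. In 5 simulated draws with 200 of 9485 genes changed, edgeR recovered on average 23.7% of genes whose log2 change was 1 and 89.7% where it was 2. It made 0 calls in a further draw with nothing changed. All genes were drawn with the same dispersion, so these shares need not hold for the real libraries. There *Jag1*, with a log2 fold change of 2.03, had an adjusted p of 0.921 in edgeR. Total depth in EC was 843202 to 1638595 counts per library.

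The members and gene lists were chosen with earlier results of these data known. A few members of the lists are not reported here. Genes named are otherwise the 25 highest members, the leader of each substrate class, the 10 largest ratios of one EC cluster to the other EC, the 8 smallest p on each side of the label contrast, members near the detection threshold, members of the ancillary and other-symbol lists, and carriers of the brain endothelium list. *Slc26a4*, *Slc4a8*, *Slc4a4*, *Slc34a2*, *Slc6a2*, *Slc16a10*, those compared with fibroblast and VSMC-like cells, and second members of substrate classes were named after their values were seen where no part of the rule names them. Alternatives changed the tool, scaling, low-count filter, gene minimum, resolution, cells and depth (714 EC thinned to 2833 counts, with 80 shallower EC left out), and left out each library in turn. Gene positions are from GENCODE vM21 on GRCm38, and matplotlib 3.10.9 drew the figures.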

Additional observations from a re-analysis of the deposited data

Results flagged for a closer look

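Cells with 1200 genes or fewer entered no comparison of the report, only the alternative with a lower gene minimum, and carriers were counted in them too. Their summed level over the 151 carriers was 6764 CPM in ECKO-1, 5924 in ECKO-2, 5885 in ECWT-1 and 6062 in ECWT-2, over 70, 37, 25 and 35 cells. In EC the same sums were 6568, 6003, 6764 and 6416 CPM. These cells were not sorted into EC and other cells, so the sums are given as values only.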

How the results depend on the processing

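No paired analysis was possible because nothing in the sources ties a library of one label to a library of the other, and the replicate numbers only name the libraries. No carrier was called under 9 of the alternatives that keep all libraries, DESeq2 included. Without a filter on low counts 1 was called (*Slc26a2*), and without ECKO-1 2 were called (*Slc26a2* and *Slc6a6*), and over the 4 libraries left out in turn the number lay between 0 and 2. The median log2 fold change of carriers lay between -0.0987 and 0.0346 over these, with 0.0346 without ECWT-2, and that of the summed level between -0.1346 and -0.0047. The number of carriers with at least 3 times the level of the other EC in some cluster was 35, with 15 at resolution 0.8 and 4 when at least 20 counts inside that cluster were required, a limit chosen after seeing the data, and 30 to 43 with each library left out. The 4 were *Slc6a6*, *Slco2b1*, *Slc26a4* and *Slc4a8*. At resolution 0.8 the ratio of *Slc6a6* was 9.67 and that of *Slco2b1* 12.4. With 1 library under a label, that library is assumed to vary like the others. The log2 fold changes of the 16 carriers with the smallest p, 8 on each side, kept their sign under every alternative run. These carriers were picked by p in the same libraries, so a kept sign was likely from the choice and is no test. Members of fewer than 30 counts are limited by counting error.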
